A study of Macaca mulatta with 2 samples.

Results

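Border spots were capture spots that lay off the tissue but directly beside it, and their RNA was compared with that of the tissue they bordered. The data came from 2 spatial transcriptomic sections of rhesus macaque (Macaca mulatta) eye wall, 1 per animal, in which each printed spot of 55 µm captured polyadenylated RNA and every molecule was counted by its unique molecular identifier (UMI). Spot positions were read from the grid in units of the distance between neighbouring spots, and a border spot was any spot marked as off tissue whose nearest tissue spot lay within 1.5 units. This rule took 631 of the 9984 spot positions of both sections, 452 of 4992 in NHP1 and 179 of 4992 in NHP2, beside 534 and 470 tissue spots. All of them touched a tissue spot. In NHP2, 2 border positions had no column in the count matrix, which left 177 with values.

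Both sections were the untreated samples of the study and came from right eyes. NHP1 was a male of 5 years whose eyes had received AAV2-CAG-hRPE65, and NHP2 a male of 6 years that had received AAV8-GRK1-mScarlet and AAV8-GRK1-hRPGR(co) in separate blebs. AAV is a viral gene-therapy vector, CAG a promoter active in most cell types and GRK1 a photoreceptor promoter. The punches of 4 mm, which held retina, choroid and sclera, were taken outside the injected blebs 12 weeks after the injection and cut at 10 µm. Both eyes had also been given triamcinolone, a steroid, under Tenon's capsule at surgery, so neither section came from an eye without vector and steroid. The labels called the tissue fresh frozen and also mentioned fixation in paraformaldehyde. With 1 section per animal there was no replicate of either animal, no test was made, and the intervals given are exact 95% intervals for counting error only.

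The eye wall is layered. Ganglion cells, whose axons form the optic nerve, lie innermost. Bipolar, amacrine and horizontal cells and the bodies of Müller glia form the inner nuclear layer, and rods and cones lie outside it, against the retinal pigment epithelium, a sheet of pigmented cells that recycles the visual chromophore. The choroid, with its vessels and melanocytes, and the collagen-rich sclera follow. In this assay a section is placed on printed spots and permeabilised, and the RNA that is released is caught by the oligonucleotides beneath it. Released RNA can move sideways before it is caught. The mark that separates tissue spots from the rest is drawn on the image of the stained section.

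The tissue spots summed to 1484784 UMIs in NHP1 and 805726 in NHP2, with medians of 1473.5 and 370.5 UMIs per spot. Each layer's markers were present in both sections: rod genes made up 117 and 92.5 of every 10000 tissue UMIs, Müller genes 131 and 124, and scleral genes 59.7 and 213. Of the genes listed as markers, 19 were not in the reference, among them MALAT1, NEAT1 and the other 3 nuclear RNAs that could have shown nuclei. Barcodes on these slides mark grid positions, and 26 of those positions were border spots in both sections.

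Border spots held 306566 UMIs in NHP1 and 49775 in NHP2. That was 15.3% and 5.64% of all UMIs of the section, and 58.6% and 64.7% of the UMIs that fell off the tissue. Per spot they ran from 0 through a median of 161 to 11203 UMIs in NHP1, and from 0 through a median of 35 to 7807 in NHP2. The mean border spot held 0.244 and 0.164 times the UMIs of the mean tissue spot. Most border spots were therefore shallow, but 62 of NHP1 and 15 of NHP2 held more UMIs than the median tissue spot, and the ranges of border and tissue spots overlapped in both sections.

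**Figure D1:**
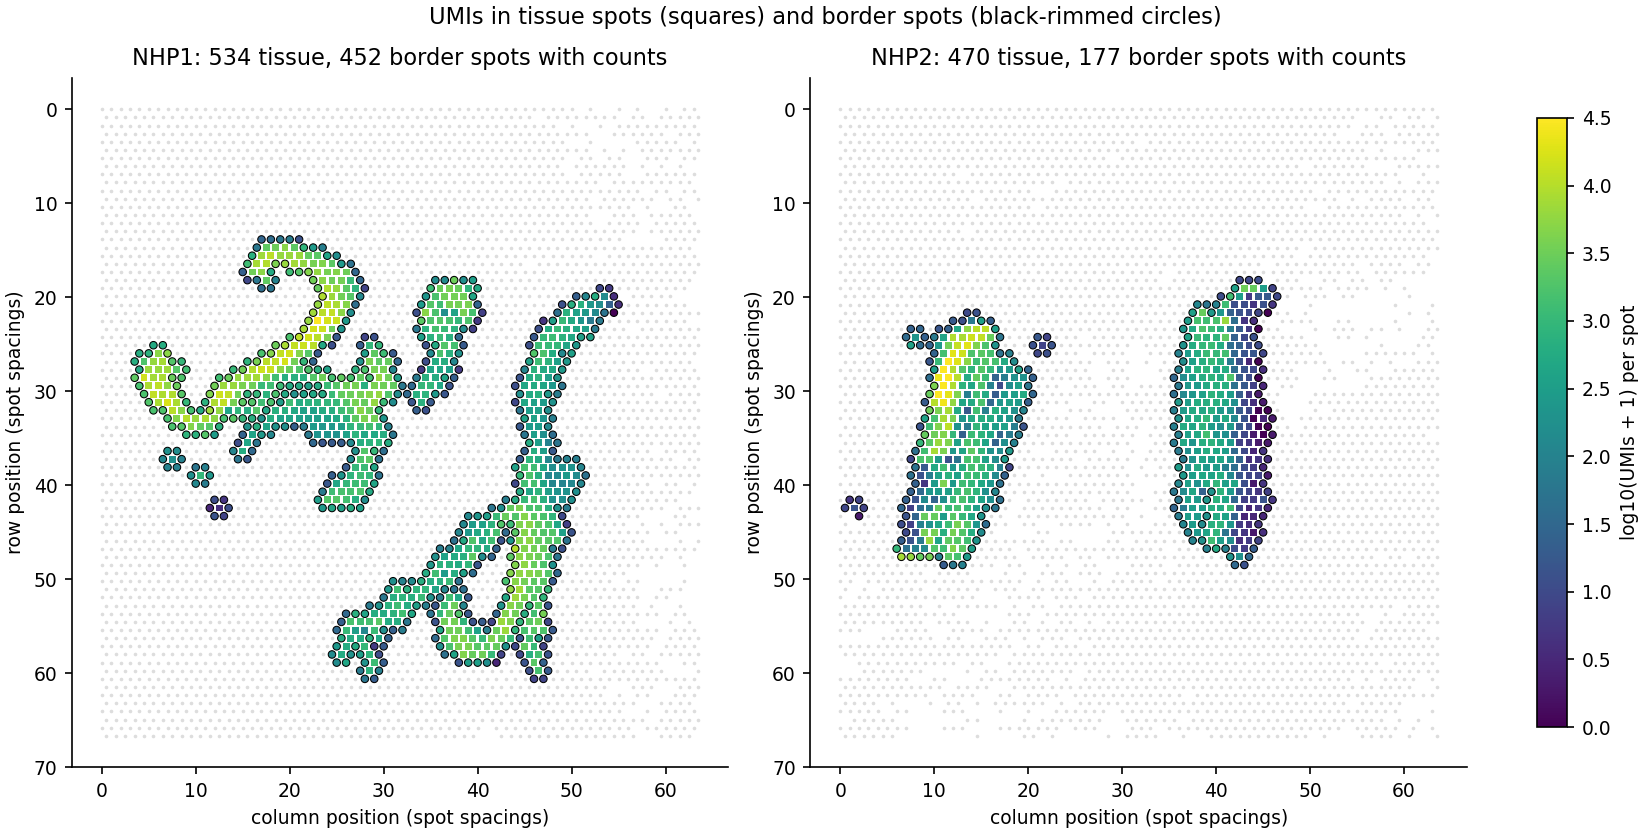
Map of both sections in spot spacings, with tissue spots as squares and border spots as black-rimmed circles, coloured by log10(UMIs + 1), and other off-tissue positions in grey. Deep border spots lay beside the deepest tissue of NHP1, while in NHP2 a short row of them at the lower left end of 1 piece, up to 7807 UMIs, lay beside tissue spots of few UMIs.

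The UMIs were spread unevenly. The 10 deepest border spots held 25.6% of border UMIs in NHP1 and 71.0% in NHP2, so sums over the NHP2 border describe a handful of spots. Border spots that touched more tissue spots were deeper in NHP1, with medians of 53, 161, 504 and 528 UMIs for 1, 2, 3 and 4 touching tissue spots. In NHP2 the medians for 1, 2 and 3 were 18, 80 and 67. Border UMIs followed the mean UMIs of the tissue spots they touched, with Spearman's rho of 0.494 over 452 spots and 0.638 over 177, spots that share 1 library in each case.

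In NHP1, 9 of the 10 deepest border spots touched a tissue spot that was at least as deep, and the exception, of 9444 UMIs, touched tissue of at most 5269. In NHP2 the border spots of 3619 and 1274 UMIs also touched only shallower tissue, of at most 1890 and 1228 UMIs. Their rod and cone genes made up 326 and 338 of 10000. The border spots of 7807, 6175 and 2605 UMIs in NHP2 differed far more from their tissue. They touched tissue spots of at most 45, 88 and 138 UMIs, and the outer ones both touched the one of 6175. The share of UMIs from rod and cone genes was 57.6, 113 and 211 of 10000 in them, next to 97.2 in the whole NHP2 tissue. Inner retina genes made up 115, 206 and 127 of 10000, next to 166 in that tissue. These spots thus held RNA of several retinal layers, and only 2 of them were above the tissue in rod and cone genes. The marked tissue beside them held few UMIs of any kind. Whether the mark missed tissue there was not tested.

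UMIs fell away quickly with distance. Just outside the limit of 1.5 units, the 410 and 192 spots that lay up to 2.5 units from tissue had medians of 29 UMIs in NHP1 and 12 in NHP2. Farther than 10 units the median was 4 in both sections. The mean there, 7.12 and 4.47 UMIs, was 1.05% and 1.59% of the mean border spot, so spots far from the tissue held little beside what the border held. The level of mitochondrial genes in NHP1 went from 1149 per 10000 at the border through 1127 and 953 in the next rings to 638 at 6 to 10 units, and was 1023 beyond 10 units. In NHP2 it went from 855 through 836 and 634 to 376 at 6 to 10 units and 354 beyond. The ganglion level of NHP1 was 32.3 at the border and 20.3 in the next ring. In NHP2 it went the other way, from 32.1 (27.4 to 37.5) to 50.8 (35.4 to 70.6), the latter from 35 UMIs.

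**Figure D2:**
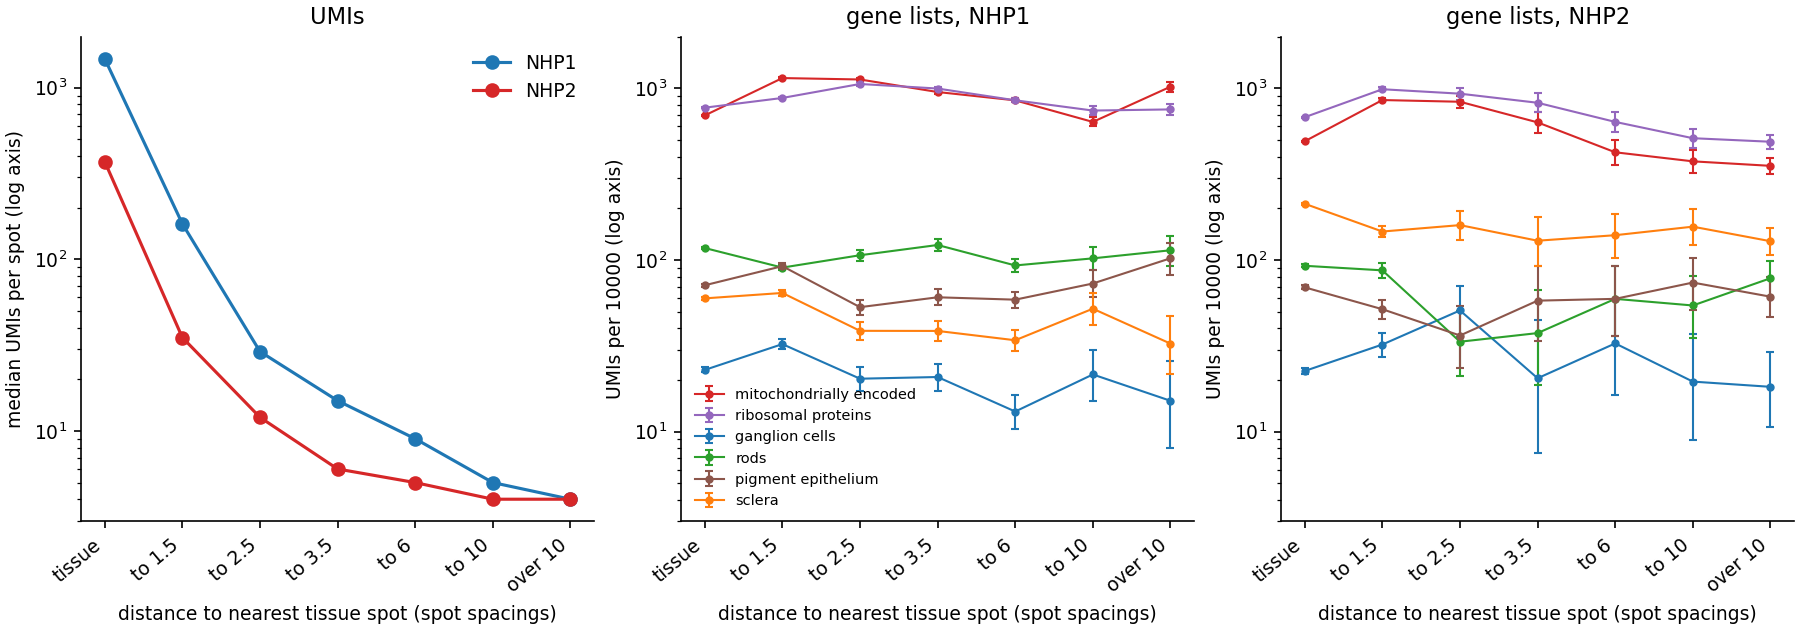
The left panel shows median UMIs per spot (log axis) for tissue spots and for off-tissue spots by distance to the nearest tissue spot, in spot spacings, and the other panels show the level of 6 gene lists in UMIs per 10000 (log axis) with exact 95% Poisson intervals. Median UMIs fell from 161 and 35 at the border to 4 beyond 10 spacings, and mitochondrially encoded genes were higher at the border than in tissue in both sections.

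Which genes were over- or under-represented beside the tissue was read from the ratio of a gene's share of border UMIs to its share of tissue UMIs. Genes with at least 10 expected border UMIs were compared, and a gene was called over-represented at a ratio of 1.5 or more and under-represented at 1/1.5 or less. In NHP1, 143 of 5326 genes (2.68%) were over-represented and 961 (18.0%) under-represented, with a median ratio of 0.878. In NHP2, 100 of 889 genes (11.2%) were over-represented and 167 (18.8%) under-represented, with a median ratio of 0.93. Against the tissue spots that touched the border instead, 154 of 5262 (2.93%) and 907 (17.2%) were called in NHP1, and 74 of 814 (9.09%) and 139 (17.1%) in NHP2. The interval lay off 1 for 77 of the 143 and 406 of the 961 in NHP1, and for 82 of the 100 and 70 of the 167 in NHP2. Many calls in NHP1 were therefore no farther from 1 than counting error. The balance of calls also moved with the scaling. For this the mitochondrial transcripts and the 50 genes with the most UMIs were taken out of the totals. All NHP1 ratios then rose by 0.12 on the log2 scale. The calls became 198 over and 609 under, of 5053 genes compared instead of 5326.

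**Figure D3:**
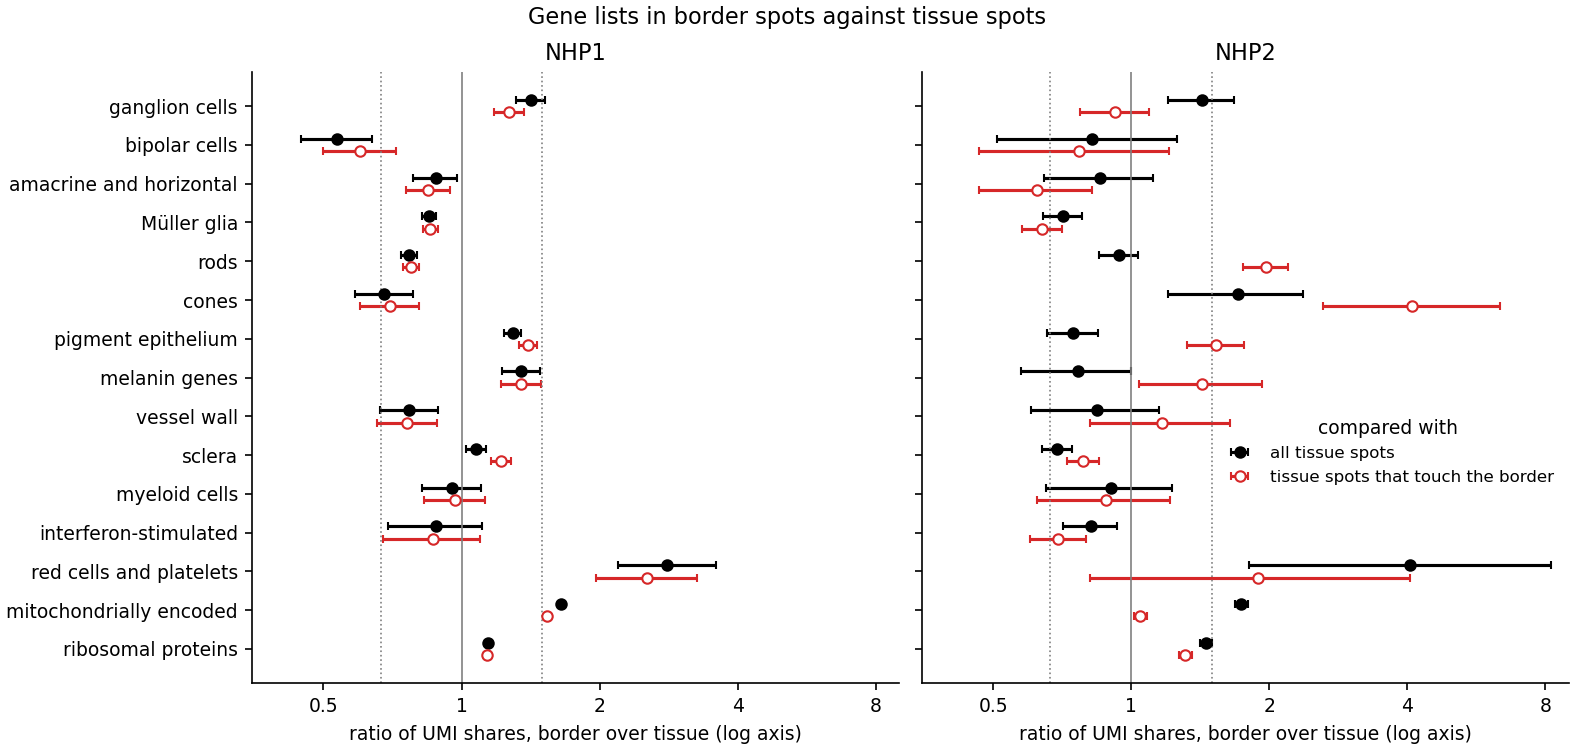
Ratio of UMI shares (log axis) for each gene list, border spots over all tissue spots (black) and over the tissue spots that touch them (red, open), with exact conditional 95% intervals and dotted lines at 1.5-fold. Mitochondrially encoded genes stood at 1.65 and 1.74 against all tissue, while pigment epithelium and sclera lay on opposite sides of 1 in the 2 sections.

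Transcripts encoded in mitochondrial DNA, which are made and translated inside the mitochondrion, were over-represented beside the tissue in both sections. They made up 1149 of every 10000 border UMIs against 696 of 10000 tissue UMIs in NHP1, a ratio of 1.65 (1.63 to 1.67), and 855 against 492 in NHP2, a ratio of 1.74 (1.68 to 1.79). All 11 genes of the list that were compared in NHP1 and 8 of the 9 in NHP2 were over-represented, where 2.68% and 11.2% of all genes were. COX3, a subunit of cytochrome c oxidase, gave 9211 border UMIs in 330 spots of NHP1, at a ratio of 1.55 (1.52 to 1.59), and 1394 in 86 spots of NHP2, at 1.79 (1.70 to 1.90). ATP6, a subunit of ATP synthase, stood at 1.83 (1.77 to 1.88) and 1.64 (1.5 to 1.78). ND4L and ND2, subunits of complex I, stood at 2.1 and 1.78 in NHP1 and at 2.31 and 2.07 in NHP2. CYTB, of complex III, was over-represented in NHP1 at 2.30 (1.94 to 2.72), while its 11 border UMIs in NHP2 gave 0.923 (0.453 to 1.69).

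Against the tissue spots that touched the border, the mitochondrial ratio was still 1.54 (1.52 to 1.56) in NHP1 but 1.05 (1.01 to 1.08) in NHP2. In NHP1, 9 of 11 genes were over-represented against them, where 2.93% of all genes were. In NHP2 none of 9 was, where 9.09% of all genes were, and 1 was under-represented, where 17.1% were. The touching tissue of NHP2 held 817 mitochondrial UMIs per 10000, far more than the whole NHP2 tissue. Without its 10 deepest border spots the NHP2 ratio was 0.939, and the NHP1 ratio 1.5. At equal depth the levels in NHP1 were higher beside the tissue throughout: among spots of 300 to 1000 UMIs they were 954 per 10000 in border spots and 552 in tissue spots, and among spots of at least 3000 UMIs 1371 and 754. The NHP1 difference was thus also present between spots of like depth. In NHP2 the border level was also above the tissue level in each of the 5 bins, but intervals overlapped in the bins under 300 UMIs. The levels were 419 and 358 at 100 to 300 UMIs and 853 and 291 at 1000 to 3000, the latter over 4 border spots. At 3000 UMIs or more they were 1076 and 572, over 5 border spots.

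Genes of the inner retina did not move as 1 group. In summed spots, fewer cells of a type and less RNA per cell cannot be told apart. Ganglion cell genes were higher beside the tissue, at 32.3 per 10000 in border spots and 22.9 in tissue spots of NHP1, a ratio of 1.41 (1.32 to 1.52), and at 32.1 and 22.5 in NHP2, a ratio of 1.43 (1.21 to 1.68). In NHP1, 4 of the 9 compared were over-represented, where 2.68% of all genes were, and none under-represented. Against the touching tissue 1 of 9 was over-represented, where 2.93% of all genes were. NEFL, NEFM and NEFH, the 3 neurofilament subunits of large axons, stood at 1.53 (1.29 to 1.82), 2.06 (1.56 to 2.71) and 1.51 (1.17 to 1.92), and SNCG, a synuclein of ganglion cells, at 1.59 (1.30 to 1.93). INA, a further neurofilament protein, stood at 1.22 (1.04 to 1.42) and the surface protein THY1 at 1.24 (0.997 to 1.54). In NHP2, 3 genes were compared and NEFL alone was over-represented, at 1.65 (1.11 to 2.38), from 32 border UMIs in 10 spots, where 11.2% of all genes were. This excess lay in the deep border spots: without the 10 deepest, the ganglion ratio was 1.02 in NHP1 and 0.831 in NHP2. Against the touching tissue it was 1.27 (1.18 to 1.37) in NHP1 and 0.922 (0.774 to 1.09) in NHP2.

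Bipolar genes were the lowest of the retinal lists in NHP1. They stood at 4.57 per 10000 in border spots and 8.54 in tissue spots, a ratio of 0.535 (0.446 to 0.637). Both genes compared were under-represented, where 18.0% of all genes were. PCP2, a modulator of G proteins in ON bipolar cells, gave 116 border and 1064 tissue UMIs, a ratio of 0.528 (0.432 to 0.640), and LRTM1 gave 0.484 (0.235 to 0.901). The NHP2 border held 22 bipolar UMIs, at 0.822 (0.510 to 1.26). Against the touching tissue the NHP1 ratio was 0.600 (0.498 to 0.718).

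Amacrine and horizontal cell genes stood at 0.878 (0.786 to 0.978) in NHP1 and at 0.856 (0.646 to 1.11) in NHP2. None of 9 genes was called in NHP1, where 2.68% of all genes were over- and 18.0% under-represented. PAX6, a transcription factor of amacrine and ganglion cells, gave 0.955 in NHP1 and was called under-represented in NHP2 at 0.657, and the calcium-binding proteins CALB1 and CALB2 gave 0.729 and 0.891 in NHP1 and 1.08 and 1.56 in NHP2, the last called over-represented. Only 11 to 21 border UMIs stood behind each of these NHP2 values. Müller genes were lower beside the tissue in both sections, at 0.850 (0.820 to 0.882) and 0.708 (0.642 to 0.780). TF, which encodes transferrin and gave the most UMIs of the list, stood at 0.726 (0.683 to 0.772) and 0.637 (0.534 to 0.754). GLUL, the glutamine synthetase of Müller glia, gave 1.0 (0.911 to 1.10) in NHP1 and 0.675 (0.489 to 0.910) in NHP2, CLU, or clusterin, 0.956 and 0.623, and APOE, the lipid carrier, 1.09 and 1.0. The water channel AQP4 and the receptor GPR37 were the 2 Müller genes under-represented in NHP1, at 0.602 and 0.536, from 23 border UMIs each. That was 2 of 10 compared, where 18.0% of all genes were under-represented. NEFM, NEFH, AQP4, GPR37, ENPP2, SLC39A12, BEST1, PDGFRB, PCOLCE, LUM, FN1, BGN and IFI6 are named because they were called, a choice made after their values were seen.

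Rod genes were lower beside the tissue in NHP1, at 90.3 per 10000 in border spots and 117 in tissue spots, a ratio of 0.769 (0.738 to 0.80). None of the 11 compared reached the 1.5-fold limit, and their median ratio was 0.810 next to 0.878 over all genes. The difference lay in the deep spots: those of at least 3000 UMIs held 62.1 rod UMIs per 10000 beside the tissue and 121 in it. Shallower border spots held more than tissue spots of like depth, with 97.8 and 32.5 at 100 to 300 UMIs, 103 and 83.3 at 300 to 1000, and 124 and 117 at 1000 to 3000. ROM1, a membrane protein of outer segment discs, stood at 0.682 (0.616 to 0.754), SAG, the rod arrestin, at 0.704 (0.647 to 0.765), NRL, the transcription factor that sets rod fate, at 0.795 (0.705 to 0.894) and GNGT1, the rod transducin gamma subunit, at 0.831 (0.765 to 0.901). In NHP2 the rod ratio was 0.941 (0.852 to 1.04) against all tissue and 1.97 (1.76 to 2.20) against the tissue that touched the border. All 5 rod genes compared with the touching tissue were over-represented there, where 9.09% of 814 genes were, and the touching tissue held 44.2 rod UMIs per 10000 against 92.5 in the whole NHP2 tissue. The direction of the rod difference in NHP2 was thus set by which tissue spots it was read against.

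Cone genes differed between the sections. In NHP1 they stood at 0.678 (0.585 to 0.782), with ARR3, the cone arrestin, at 0.734 (0.599 to 0.894) and OPN1LW, the red-sensitive opsin, under-represented at 0.533 (0.393 to 0.708). Because red and green opsin genes are near-identical copies, the reads counted under OPN1LW may come from either. In NHP2 the cone list reached 1.71 (1.20 to 2.37) from 40 border UMIs in 13 spots, and ARR3 was over-represented at 1.99 (1.27 to 2.99) from 26 UMIs in 12 spots. OPN1LW, with 7 border UMIs, gave 0.977 (0.384 to 2.08). RTBDN, a retbindin made by rods, was under-represented against all tissue in both sections, at 0.578 (0.482 to 0.689) and 0.562 (0.305 to 0.955), but gave 1.30 (0.666 to 2.38) against the touching tissue of NHP2.

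The summed genes of the pigment epithelium were higher beside the tissue in NHP1 and lower in NHP2, though neither sum reached 1.5-fold. In NHP1 its genes stood at 92.0 per 10000 in border spots and 71.2 in tissue spots, a ratio of 1.29 (1.24 to 1.35), and 3 of 9 were called over-represented, where 2.68% of all genes were: ENPP2, which encodes autotaxin, at 1.90 (1.52 to 2.37), the zinc transporter SLC39A12 at 1.88 (1.20 to 2.87) and BEST1, the bestrophin channel, at 1.63 (1.15 to 2.26). TTR, or transthyretin, gave the most UMIs, 1527 in 185 border spots, at 1.42 (1.34 to 1.51). RGR, a retinal opsin of the pigment epithelium, stood at 1.41 (1.20 to 1.64), RDH5, a retinol dehydrogenase, at 1.21 (1.04 to 1.39) and RLBP1, the retinal-binding protein shared with Müller glia, at 0.936 (0.841 to 1.04).

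In NHP2 the same list stood at 51.6 per 10000 in border spots and 69.2 in tissue spots, a ratio of 0.746 (0.655 to 0.845). RGR was under-represented there at 0.575 (0.338 to 0.918), from 18 border UMIs, and TTR gave 0.682 (0.554 to 0.832). Read against the touching tissue, the NHP2 list turned to 1.53 (1.33 to 1.76), with TTR at 2.39 (1.87 to 3.04) and RGR at 2.21 (1.19 to 3.95). The melanin genes, shared by pigment epithelium and choroidal melanocytes, followed the same course, with a ratio of 1.35 (1.22 to 1.48) for NHP1 and 0.765 (0.574 to 1.0) for NHP2. PMEL, which forms the fibrils on which melanin is laid down, stood at 1.41 (1.20 to 1.66) and 0.487 (0.264 to 0.826), and TYRP1, a melanin enzyme, at 1.32 (1.15 to 1.52) and 0.710 (0.451 to 1.07). MLANA, a melanosome protein, was over-represented in NHP1 at 2.33 (1.38 to 3.82), from 25 border UMIs. GPNMB, also of melanosomes, gave 1.10 in NHP1 and was called over-represented in NHP2 at 1.66 (0.943 to 2.74), from 17.

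Vessel genes, of endothelial and mural cells, were lower beside the tissue in NHP1, at 0.769 (0.663 to 0.887), and 4 of 7 were under-represented against 18.0% of all genes. Whether they came from vessels of the choroid or of another layer was not tested. CLDN5, a tight-junction protein of endothelium, stood at 0.482 (0.30 to 0.741), VWF, the von Willebrand factor, at 0.632 (0.381 to 0.999), KDR, a receptor of vascular growth factor, at 0.655 (0.471 to 0.893) and PDGFRB, a pericyte receptor, at 0.667 (0.361 to 1.15). NHP2 held 42 vessel UMIs in its border, a ratio of 0.844 (0.603 to 1.15), and its 1 compared gene, CLDN5, was under-represented at 0.606 (0.240 to 1.27), but stood at 1.04 (0.390 to 2.40) against the touching tissue.

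Scleral genes were nearly level in NHP1, at 64.2 per 10000 in border spots and 59.7 in tissue spots, a ratio of 1.08 (1.02 to 1.13), and lower in NHP2, at 146 and 213, a ratio of 0.689 (0.639 to 0.742). In NHP1, 1 of 17 was over-represented, the collagen-processing cofactor PCOLCE at 1.56 (0.878 to 2.65), where 2.68% of all genes were. None was under-represented, where 18.0% of all genes were. GSN, or gelsolin, stood at 1.23 (1.13 to 1.34), the growth-factor-binding protein IGFBP6 at 1.11 (0.988 to 1.25) and the proteoglycan DCN, or decorin, at 0.982 (0.857 to 1.12). In NHP2, 6 of 15 were under-represented, where 18.8% of all genes were, and none over-represented. FMOD, or fibromodulin, stood at 0.294 (0.146 to 0.530), MYOC, or myocilin, at 0.496 (0.386 to 0.628) and ANGPTL7, an angiopoietin-like protein, at 0.506 (0.368 to 0.678), followed by LUM, FN1 and BGN, matrix genes with 7 to 14 border UMIs, at 0.476, 0.481 and 0.557. PTGDS, a prostaglandin synthase, was under-represented in NHP2 at 0.429 (0.369 to 0.497), with 1.25 without the 10 deepest border spots, and gave 1.11 (1.04 to 1.19) in NHP1.

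The scleral ratio depended on the depth of the border spots. Without the 10 deepest it was 1.39 in NHP1 and 2.21 in NHP2, since shallow border spots held more scleral RNA: NHP2 border spots of 100 to 300 UMIs held 646 scleral UMIs per 10000 and those of at least 3000 held 13.6. Tissue spots of those depths held 463 and 48.7. In between, NHP2 border spots held less than tissue spots, with 299 against 668 at 300 to 1000 UMIs and 16.9 against 664 at 1000 to 3000. Among all NHP2 spots under 1000 UMIs the ratio was 0.711 (0.656 to 0.770). Several scleral genes that were under-represented in NHP2 turned the other way without its 10 deepest border spots, with MYOC at 1.57, ANGPTL7 at 1.71 and FMOD at 1.02. In NHP1, border spots of 300 to 1000 UMIs held 142 scleral UMIs per 10000 and tissue spots 304, and border spots were also lower in the other bins under 3000 UMIs. Among spots of at least 3000 UMIs the order turned, with 21.4 (19.1 to 24.0) in border spots and 17.8 (17.1 to 18.6) in tissue spots.

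Cytosolic ribosomal protein genes stood at 1.14 (1.12 to 1.15) in NHP1 and at 1.46 (1.41 to 1.5) in NHP2. In NHP1, 1 of 75 was over- and 1 under-represented, where 2.68% and 18.0% of all genes were. In NHP2, 31 of 68 were over-represented, where 11.2% of all genes were, and none under-represented, where 18.8% were. Against the touching tissue of NHP2, 13 of 69 were over-represented, where 9.09% of all genes were. RPS25, RPL30 and RPS27, of the small and large ribosomal subunits, stood at 2.96 (2.09 to 4.11), 2.22 (1.79 to 2.72) and 2.14 (1.63 to 2.79) in NHP2 and at 1.12, 1.17 and 1.32 in NHP1. RPL32 gave 1.73 in NHP2 and RPS28 1.17. TMSB10, a small actin-binding protein, was over-represented in NHP2 at 2.05 (1.72 to 2.42) and gave 1.22 (1.10 to 1.35) in NHP1. Ribosomal gene families have many processed copies, and how reads shared with such copies were counted was not given in the sources used here.

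Red cell and platelet genes had the highest ratio of the lists against all tissue in both sections. In NHP1 they stood at 3.52 per 10000 in border spots and 1.25 in tissue spots, a ratio of 2.81 (2.20 to 3.58). HBA, an alpha globin, gave 107 border UMIs in 36 spots and 183 tissue UMIs, a ratio of 2.83 (2.21 to 3.61). HBE1, listed as an epsilon globin, gave 197 in 48 border spots and 337 in tissue, also a ratio of 2.83 (2.36 to 3.39). No gene named HBB was in the reference, and the globins are close copies, so which beta-type globin was counted as HBE1 is uncertain. The red cell level was higher still beyond the border, at 8.82 per 10000 from 1.5 to 2.5 units and 9.34 from 2.5 to 3.5. NHP2 held 10 such UMIs in 4 border spots and 40 in tissue, a ratio of 4.05 (1.80 to 8.23). Against the touching tissue the ratio was 2.54 (1.97 to 3.27) in NHP1. In NHP2 it was 1.89 (0.814 to 4.06), where cone genes stood at 4.10. Among NHP1 spots of like depth the border was lower at 100 to 300 UMIs, at 3.17 against 3.75. It was also lower at 1000 to 3000, at 2.87 against 4.48, with overlapping intervals in both bins. The other bins were higher in the border, with 9.57 against 0.966 at 300 to 1000.

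Myeloid genes stood at 0.954 (0.820 to 1.11) and 0.904 (0.651 to 1.22), intervals that include 1. In NHP1, 1 of 4 was under-represented, the complement gene C1QB at 0.605 (0.312 to 1.08), where 18.0% of all genes were. CD74, the invariant chain of antigen presentation, gave 0.869 and 0.823, and LYZ, or lysozyme, 1.02 and 1.17. Interferon-stimulated genes were scarce in NHP1, at 2.81 per 10000 in border spots and 3.19 in tissue. In NHP2 they stood at 45.6 and 55.9, a ratio of 0.815 (0.710 to 0.932), and 3 of 6 were under-represented, where 18.8% of all genes were, among them MX1, a dynamin-like antiviral protein, at 0.612 (0.410 to 0.880) and IFIT1, which binds viral RNA, at 0.649 (0.416 to 0.966). ISG15, a ubiquitin-like protein, gave 1.10 (0.812 to 1.47). Among NHP2 spots of like depth, the interferon list was higher beside the tissue in each bin under 3000 UMIs. Under 100 UMIs it stood at 49.6 per 10000 in border spots and 13.1 in tissue spots. At 1000 to 3000 UMIs the levels were 60.1 and 24.5, over 4 border spots. Intervals overlapped in the bins under 300 UMIs. At 3000 UMIs or more the border was lower, at 40.5 against 67.7, over 5 border spots. The list went opposite ways beside the pieces of NHP2 tissue, at 1.75 (1.15 to 2.58) beside the largest and 0.766 (0.659 to 0.886) beside the next. In NHP1 IFI6, a mitochondrial interferon-stimulated protein, was called over-represented at 1.54 (0.896 to 2.55).

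Genes of tissues not meant to be in the punch were rare beside it. Striated muscle genes gave 6 border UMIs in NHP1 and 2 in NHP2, and surface epithelium 2 and 0. Myelin genes gave 50 and 13, at ratios of 0.957 (0.692 to 1.30) and 0.873 (0.458 to 1.52).

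Some genes outside the lists lay at the ends of the NHP1 ratios. SPTBN1, a spectrin of the membrane skeleton, gave 33 border UMIs in 27 spots against 49 in tissue, a ratio of 3.26 (2.03 to 5.18), and CSPP1, a protein of centrosomes and cilia, 30 in 23 spots against 43, a ratio of 3.38 (2.05 to 5.51). The highest of all was a gene without a symbol, ENSMMUG00000052254, at 4.09 (3.01 to 5.55). A further unnamed gene, ENSMMUG00000049855, was far more abundant, with 7478 border UMIs in 330 spots, and had a ratio of 2.71 (2.64 to 2.79) for NHP1 and 2.04 (1.86 to 2.23) for NHP2. At the low end of NHP1, COG1, a Golgi tethering subunit, gave 1 border UMI and 71 tissue UMIs, a ratio of 0.0682 (0.00170 to 0.393).

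SST, the somatostatin of a few amacrine cells, gave 4 border and 85 tissue UMIs in NHP1, a ratio of 0.228 (0.0607 to 0.605). In NHP2 it gave 0 border and 137 tissue UMIs, at least 2.82-fold lower beside the tissue with 3 UMIs taken as the floor over the border. CARTPT, another neuropeptide gene, gave 0.809 (0.637 to 1.02) and 0.425 (0.231 to 0.720).

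The sections were set side by side over the 882 genes compared in both. Of these, 12 were over-represented in both, 70.6% of the 17 so called in NHP1 and 12.1% of the 99 in NHP2. Mitochondrially encoded genes made up 8 of the 12: COX1, COX2, COX3, ATP6, ND2, ND3, ND4 and ND4L. NEFL was the only other one with a symbol and the rest had none. Against the touching tissue of NHP2 no compared mitochondrial gene was over-represented, and NEFL stood at 0.811. Under-represented in both were 18, which was 43.9% of 41 and 10.9% of 165. They included SF3B6, a splicing factor subunit, at 0.550 and 0.335, DDOST, of the glycosylation complex, at 0.549 and 0.337, TDRD7, of RNA granules, at 0.570 and 0.357, and PGRMC1, a haem-binding membrane protein, at 0.663 and 0.374, beside CLDN5 and RTBDN. In NHP2 such genes had as few as 4 border UMIs. No gene was called in opposite directions. NHP1 had only 17 over- and 41 under-represented genes that could have been. In NHP2, 18.8% of the 889 genes compared were under- and 11.2% over-represented. Across the 882 genes the log2 ratios correlated with Pearson's r of 0.362, and with 0.257 over the 805 that were neither mitochondrially encoded nor ribosomal. Genes within a section share its library and are not independent replicates.

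**Figure D4:**
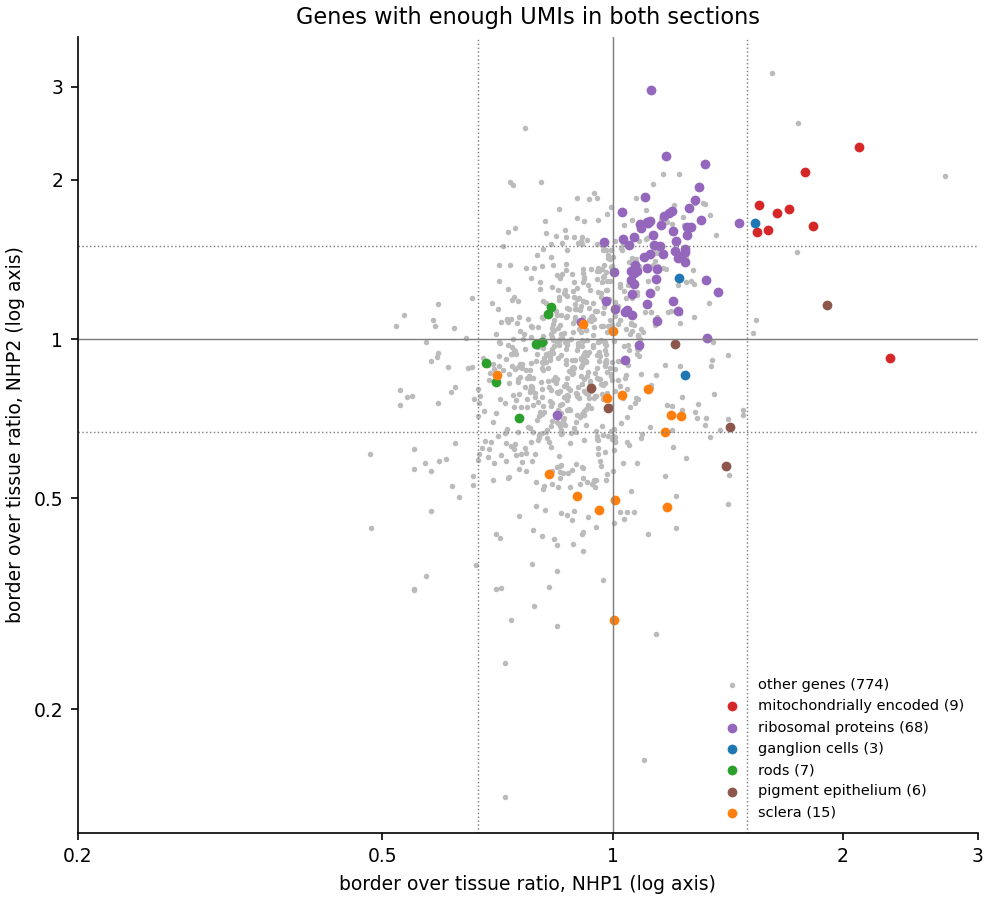
Each point is 1 of the 882 genes compared in both sections, placed by its border over tissue ratio in NHP1 and NHP2 (log axes), with dotted lines at 1.5-fold. Of the 9 mitochondrially encoded genes 8 lay above 1.5 on both axes and CYTB lay at 0.923 in NHP2, and ribosomal protein genes lay higher on the NHP2 axis, at a ratio of 1.46 for the summed list, than on the NHP1 axis, at 1.14.

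Beside which tissue a border spot lay showed in its RNA. Border spots with at least 20 UMIs, and 20 in the tissue they touched, were split at the median level of a list in the touching tissue. In NHP1 the 182 border spots beside the sclera-rich tissue held 204 scleral UMIs per 10000 and the other 182 held 11.9, a ratio of 17.1 (15.0 to 19.5). In NHP2 the same split of 55 and 55 spots gave 725 and 27.4, a ratio of 26.4 (21.6 to 32.6). Melanin genes gave 46.4 and 4.74 in NHP1, pigment epithelium genes 203 and 40.3, rod genes 157 and 51.2 and ganglion genes 41.7 and 12.2. Rod genes in NHP2 gave 118 and 32.0.

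For these lists the border followed the layer it lay against. Other lists did not show this order in their sums. Bipolar genes of NHP2 gave 2.51 beside rich and 5.10 beside poor tissue, from 4 and 17 UMIs, a ratio of 0.493 (0.121 to 1.51). Amacrine and horizontal cell genes of NHP2 gave 11.7 and 11.8, a ratio of 0.988 (0.554 to 1.73). For these 2 lists the poor tissue held no UMI of the list, and the splits were 17 to 93 and 38 to 72 spots. Interferon-stimulated genes of NHP1 gave 2.41 and 4.00, from 55 and 31 UMIs. Spearman's rho over single spots was still above 0 for these lists, at 0.16, 0.22 and 0.13. Where the touching tissue of NHP1 was poor in a list, the border held more of it than that tissue, with 51.2 against 35.1 rod UMIs per 10000, 12.2 against 7.34 ganglion UMIs and 4.74 against 2.40 melanin UMIs. Where the touching tissue was rich, the rod level was lower beside it, at 157 against 205, and the Müller level too, at 123 against 165. Scleral and pigment epithelium levels were higher beside rich tissue of NHP1 than within it, at 204 against 156 and 203 against 140. Mitochondrial genes were higher in the border on both sides of the split in NHP1, at 1333 against 994 and 757 against 369. Picking the tissue spots by their own level widens the gap between rich and poor tissue, so some narrowing in the border comes with the split itself.

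**Figure D5:**
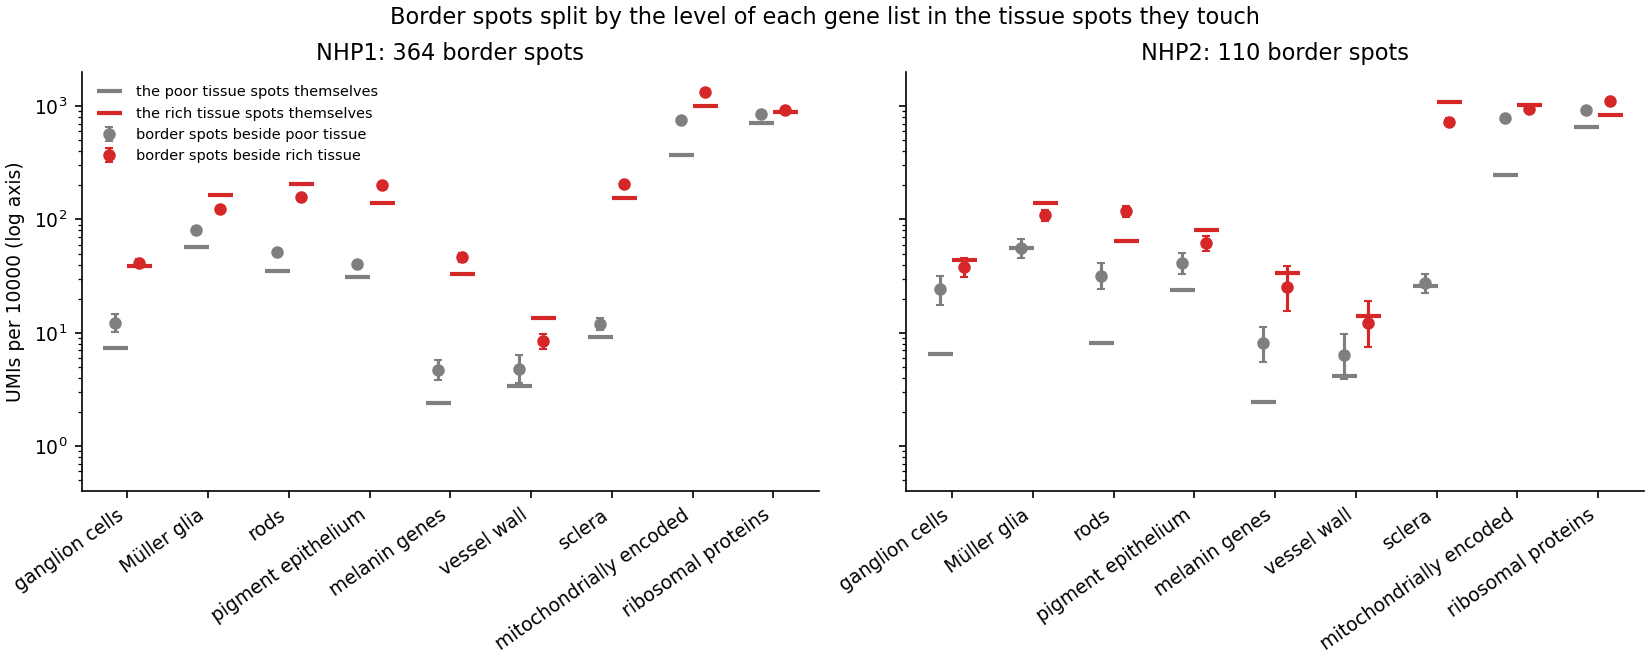
Level of each list in UMIs per 10000 (log axis) in border spots (points, with exact 95% Poisson intervals) and in the tissue spots they touch (bars), after splitting border spots by whether that tissue was rich (red) or poor (grey) in the list. The points separate in the order of the bars for every list shown, from 204 against 11.9 for sclera down to 922 against 854 for ribosomal proteins in NHP1.

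Spearman's rho between a list's level in a border spot and in its touching tissue was 0.57 for sclera, 0.54 for mitochondrial genes, 0.52 for rods, 0.48 for melanin genes and 0.31 for ganglion cells over the 364 spots of NHP1, and 0.76, 0.44, 0.28, 0.15 and 0.20 over the 110 of NHP2. For pigment epithelium genes it was 0.34 in NHP1 and 0.05 in NHP2, and for vessel genes 0.28 and 0.07. Single spots of NHP2 thus hardly followed their touching tissue in the pigment epithelium and vessel lists. In most spots these lists were thin: 230 of the 364 held no ganglion UMI and 139 no scleral one.

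Separate pieces of tissue on 1 slide gave different layers beside them. NHP1 fell into 6 pieces and NHP2 into 5 when tissue spots within 2.1 units were joined, and 3 and 2 of them held at least 20 tissue spots. Mitochondrial genes were above 1 beside all 3 in NHP1, at 1.33 (1.30 to 1.37), 1.74 (1.71 to 1.76) and 1.36 (1.26 to 1.46), and stood at 1.10 (0.953 to 1.26) and 1.86 (1.80 to 1.92) in NHP2. The pigment epithelium lists together were at 0.912 (0.848 to 0.979) beside the largest NHP1 piece and 1.58 (1.51 to 1.66) beside the next, so the largest NHP1 piece did not share the excess of the section. Photoreceptor genes were at 0.614 (0.559 to 0.672) and 0.740 (0.706 to 0.774) beside these 2 and at 1.92 (1.68 to 2.18) beside a smaller one of 48 tissue spots. Ganglion genes were at 1.58 and 1.41 beside the first 2 and 0.615 (0.357 to 0.997) beside the smaller one. In NHP2 they were at 0.824 (0.368 to 1.61) beside the largest piece and 1.52 (1.28 to 1.80) beside the next. In NHP2, scleral genes were at 0.874 (0.792 to 0.963) beside the largest piece and 0.433 (0.383 to 0.487) beside the next.

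The vector transcripts were almost absent, as they were in the tissue. A border spot of NHP1 held 1 UMI of huRPE65, whose tissue spots held 0, and the NHP2 border held 0 of huRPE65, against 1 in its tissue. No UMI of coRPGR or mScarlet was counted in either border, which allows up to 0.0979 per 10000 in NHP1 and 0.603 in NHP2.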

How the data were processed

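The deposited files hold unnormalised UMI counts for each gene in each spot, with spot positions and tissue marks, of 2 Visium sections. They were made, per the labels and the submitters' processing notes, with Space Ranger 2.1.0 on Mmul_10 extended by the transgene sequences. Values here are those counts, summed over border spots and over tissue spots of the same section. Of 26533 features, 16678 carried a symbol in the deposited list, 564 more were named from the RefSeq table and 9288 had none. Sections held 1484784 and 805726 tissue UMIs and 306566 and 49775 border UMIs. The precision is that of counting alone, and replicates were not available to test.

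A level is UMIs per 10000 with an exact Poisson 95% interval, and a ratio is the border level over the tissue level with an exact conditional binomial 95% interval. Genes with at least 10 expected border UMIs were compared, and called at 1.5-fold. Spots are small regions, not cells or replicates, and were neither clustered nor screened for doublets. Border spots, their gene lists and the alternatives were chosen with earlier results of these data known. Genes were named as up to 4 of the most abundant compared members of each list, the 10 at each end of each section by the bounds of the interval (not all of which are printed), up to 10 called alike in both sections, and the transgenes. The alternatives were the comparator, filter, fold, distance, scaling, depth of border spots, weight per spot, tissue piece and most abundant gene of a list. Sums, intervals and figures were made in Python 3.11.15 with numpy 2.4.6, pandas 2.3.3, scipy 1.17.1, networkx 3.6.1 and matplotlib 3.10.9. The interval and call steps were tested on simulated data.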

Additional observations from a re-analysis of the deposited data

Results flagged for a closer look

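Some lists lay on opposite sides of 1 in the sections, with intervals that did not include 1 in either. The difference between the sections was not tested in any of these cases, since each animal gave 1 section. Cone genes stood at 0.678 in NHP1 and 1.71 in NHP2, where the ratio was 4.10 against the touching tissue. The pigment epithelium list stood at 1.29 and 0.746, with 1.53 against the touching tissue of NHP2. Together with the melanin genes it stood at 1.30 and 0.749, with 1.51 against the touching tissue and 1.20 without the 10 deepest border spots of NHP2. Scleral genes stood at 1.08 and 0.689, with 0.786 and 2.21 under the same alternatives.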

How the results depend on the processing

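The 10 deepest border spots, a choice made after seeing the data, changed many NHP2 results: without them 30 genes were over- and 57 under-represented of only 203 compared, against 100 and 167 of 889, and the ratios were 0.939 for mitochondrial genes, 1.12 ribosomal, 0.735 inner retina, 0.521 photoreceptor, 1.20 pigment epithelium, 1.46 vessel and 2.21 sclera. Genes that turned there were ANGPTL7 1.71, FMOD 1.02, MYOC 1.57, MX1 1.13, BGN 1.79, NEFL 0.893, CLU 1.40, LUM 1.64, FN1 1.66, PTGDS 1.25, COX1 0.818, COX2 0.671, ATP6 0.916, COX3 0.933 and ND4L 0.924. In NHP1 the ratios without them were, in the same order and without vessel, 1.5, 1.16, 0.806, 0.887, 1.62 and 1.39. Without border spots above the lower quartile of tissue spots NHP1 had 49 and 215 calls among 882 genes compared and ratios of 1.43 mitochondrial, 1.09 ribosomal, 0.714 inner retina, 0.844 photoreceptor, 1.86 pigment epithelium, 0.981 vessel and 3.02 sclera, and PDGFRB 1.03, NEFL 0.555, SNCG 0.479 and NEFH 0.598 turned, and C1QB went to 1.63. NHP2 then had 1 and 0 calls among the 7 genes that could still be compared and ratios of 1.10 mitochondrial, 0.981 ribosomal, 0.229 photoreceptor, 0.953 pigment epithelium and 1.57 sclera, and ANGPTL7 1.94, MYOC 1.08, CLU 1.28, COX1 0.885 and COX2 0.743 turned.

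Against touching tissue NHP1 gave 1.54 mitochondrial, 1.39 pigment epithelium and 1.22 sclera, and NHP2 gave 1.05 mitochondrial, 1.31 ribosomal, 0.691 inner retina, 2.06 photoreceptor, 1.51 pigment epithelium, 1.17 vessel and 0.786 sclera, with NEFL 0.811, RGR 2.21, CLDN5 1.04, CALB2 0.914, RTBDN 1.30, COX2 0.956 and ATP6 0.933 turned. With 1 expected UMI as the filter the over and under counts were 1174 and 2664 of 10480 genes compared in NHP1. In NHP2 they were 1105 and 2674 of 6868. With 20 they were 49 and 375 of 3043 genes compared, and 60 and 47 of 387. At 2-fold they were 20 and 245 of 5326, and 11 and 51 of 889. Within 2.1 units NHP1 gave 1.19 ribosomal, 0.875 inner retina, 1.18 pigment epithelium and 0.991 sclera. With each spot weighted equally NHP1 gave 1.71 mitochondrial, 1.06 ribosomal, 0.859 inner retina, 0.960 photoreceptor, 1.14 pigment epithelium and 0.774 sclera, and NHP2 1.19 ribosomal, 0.863 photoreceptor, 0.660 pigment epithelium, 0.525 vessel and 0.796 sclera. The largest piece alone gave 1.33 mitochondrial, 0.995 ribosomal, 0.992 inner retina, 0.614 photoreceptor and 0.912 pigment epithelium in NHP1, and 1.10 mitochondrial, 1.06 ribosomal, 1.41 photoreceptor, 0.666 pigment epithelium and 0.874 sclera in NHP2. Without mitochondrial and the 50 most abundant genes NHP1 had 609 of 5053 genes under-represented. Its ratios were 1.80 mitochondrial, 1.24 ribosomal, 0.992 inner retina, 0.830 photoreceptor, 1.42 pigment epithelium and 1.17 sclera, and those of NHP2 1.81 mitochondrial and 1.52 ribosomal. Without a list's most abundant gene NHP1 gave 1.69 mitochondrial, 0.991 inner retina, 1.21 pigment epithelium and 1.01 sclera, and NHP2 0.889 inner retina.

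Depth was matched in 2 more ways chosen after seeing the data. Spots under 1000 UMIs gave in NHP1 1.77 mitochondrial, 1.04 ribosomal, 0.816 inner retina, 1.29 photoreceptor, 1.80 pigment epithelium and 0.50 sclera, and in NHP2 1.87 mitochondrial, 1.37 ribosomal, 1.43 photoreceptor and 0.567 vessel. Tissue weighted to the border's UMI bins gave in NHP1 1.83 mitochondrial, 1.09 ribosomal, 0.983 inner retina, 0.841 photoreceptor, 1.11 pigment epithelium, 0.591 vessel and 0.462 sclera, and in NHP2 1.94 mitochondrial, 1.15 photoreceptor, 0.604 pigment epithelium and 0.475 sclera. The cause of these shifts was not tested. Genes with 3 or fewer UMIs on a side under an alternative were given no value there. No paired analysis was possible because each animal gave 1 section and no result came from a test. At the depth of the NHP2 border most single genes could not be compared.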

Other observations

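Transcript length was set beside the ratios, with lengths from RefSeq on Mmul_10. In NHP2 the over-represented genes, mitochondrial ones left out, had a median length of 856 bases and the under-represented genes 2303, where all compared genes had 1953. Without ribosomal protein genes the over-represented median was 1750 and that of all compared genes 2095, but only 47 of those 61 over-represented genes had a length, too few for the comparison to count. Spearman's rho between length and ratio was -0.307 over 813 genes, and -0.192 over the 746 that were not ribosomal. In NHP1 it was -0.06 over 5031 genes. Genes share a library and are not independent, so no p-value is given.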
